A study of Homo sapiens with 4 samples.

Results

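The 10 genes described here encode the calcium entry machinery of T cells and the phosphatase that it switches on: the endoplasmic reticulum sensors STIM1 and STIM2, the channel pores ORAI1 and ORAI2, the calcineurin subunits PPP3CA, PPP3CB, PPP3CC and PPP3R1, and the calcineurin inhibitors RCAN1 and CABIN1. They were taken by gene name from a list of 50868 genes, and 10 of 10 were found and passed a filter of a mean of at least 1 FPKM (fragments scaled to the length of the gene and to the depth of the library). The filter kept 11503 genes in all. RNA-seq was performed on Jurkat cells, a human T-cell line derived from an acute leukaemia, labelled wild type. There were 4 conditions, all kept for 24 h: DMSO alone, 0.5 µM JQ1, DMSO with 150 ng/ml PHA, and 0.5 µM JQ1 with 150 ng/ml PHA. JQ1 is a small molecule that displaces the BET proteins from acetylated chromatin, DMSO is its solvent, and PHA (phytohaemagglutinin) is a plant lectin that cross-links surface receptors of T cells, including the T-cell receptor. The study used these libraries to look for how BET inhibition regulates the inhibitory receptor PD-1. Each condition had 1 library, so the differences below have no replicate check. The intervals cover the counting error of the libraries only, and the spread between cultures was not measured. As Jurkat is a single line grown in culture, the levels are those of leukaemic cells and not of primary T cells.

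Engagement of the T-cell receptor releases calcium from the endoplasmic reticulum. STIM proteins sense the emptied store and open ORAI channels in the plasma membrane, and this store-operated entry keeps cytosolic calcium high. Calcium-loaded calmodulin then activates calcineurin, a dimer of a catalytic A subunit (PPP3CA, PPP3CB or PPP3CC) and a regulatory B subunit (PPP3R1 in most tissues), which removes phosphates from NFAT and sends it to the nucleus. RCAN1 and CABIN1 bind calcineurin and restrain it, and FK506 and cyclosporin A block the same enzyme as drugs.

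The libraries held between 18620954 and 19685401 counts. A count of 0 allowed up to between 0.152 and 0.161 CPM (counts scaled to 1e+06 per library). Of 14 T-cell markers, 13 were at 1 FPKM or more in all 4 libraries, CD4 being the exception. Of 19 markers of other blood lineages, 18 stayed under 1 FPKM, at no more than 0.148, and the exception was the B-cell marker CD79A, at 7.48 FPKM in DMSO, 1.06 in JQ1, 6.33 in DMSO + PHA and 1.01 in JQ1 + PHA. HEXIM1, a gene that BET inhibitors raise in many cell types, was at 36.2, 109, 34.6 and 104 FPKM in the same order, so both JQ1 libraries stood apart as labelled. CD69, an early activation marker, was at 1.05, 0.766, 20.4 and 3.14 FPKM, so both PHA libraries were also above their partners.

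The calcium sensors came first in the pathway and were higher with JQ1. STIM1 (chromosome 11, 3854527 to 4093210, plus strand, GRCh38), which triggers strong store-operated entry, was at 4.11 FPKM in DMSO (1110 counts), 9.46 in JQ1 (2672 counts), 7.68 in DMSO + PHA (2168 counts) and 10.1 in JQ1 + PHA (2707 counts). The DMSO library was thus the low one, and the other 3 lay between 7.68 and 10.1 FPKM. As the libraries are bulk RNA, fewer cells with a transcript and less of it per cell cannot be told apart here or below. As a share of all counts STIM1 was 2.30-fold higher in JQ1 than in DMSO (log2 ratio 1.20, 95% interval 1.10 to 1.30), but only 1.32-fold higher in JQ1 + PHA than in DMSO + PHA (log2 ratio 0.40, 0.32 to 0.48). PHA alone went with a log2 ratio of 0.90 (0.80 to 1.01), and PHA on top of JQ1 with 0.10 (0.02 to 0.18).

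STIM2 (chromosome 4, 26857678 to 27025381, plus strand), the sensor that responds to small losses of stored calcium and sets the resting level, followed JQ1 and not PHA. It was at 2.92 FPKM in DMSO (667 counts), 6.99 in JQ1 (1673 counts), 2.70 in DMSO + PHA (646 counts) and 6.34 in JQ1 + PHA (1435 counts). Both JQ1 libraries were high and both libraries without JQ1 were low. Its log2 ratios of shares were 1.26 (1.13 to 1.39) for JQ1 alone and 1.23 (1.10 to 1.37) for JQ1 in PHA-treated cells. The PHA ratio was -0.11 (-0.27 to 0.05) in DMSO, an interval that includes 0, and -0.14 (-0.24 to -0.04) in JQ1.

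The ORAI pores differed in opposite directions with JQ1. ORAI1 (chromosome 12, 121626550 to 121642677, plus strand), the main pore subunit of the T-cell calcium release-activated channel, was at 2.14 FPKM in DMSO (181 counts), 5.20 in JQ1 (459 counts), 3.73 in DMSO + PHA (329 counts) and 4.85 in JQ1 + PHA (405 counts). Like STIM1, it was lowest in DMSO alone. Its share of counts was 2.42-fold higher in JQ1 than in DMSO (log2 ratio 1.28, 1.03 to 1.53) and 1.30-fold higher in JQ1 + PHA than in DMSO + PHA (log2 ratio 0.38, 0.17 to 0.59). PHA without JQ1 gave 0.80 (0.53 to 1.07), and PHA with JQ1 gave -0.10 (-0.30 to 0.09).

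ORAI2 (chromosome 7, 102433106 to 102456821, plus strand), a related pore protein that can join ORAI1 in mixed channels and lower their current, was at 2.16 FPKM in DMSO (935 counts), 0.851 in JQ1 (385 counts), 1.89 in DMSO + PHA (855 counts) and 0.789 in JQ1 + PHA (338 counts). It was the only one of the 10 genes below 1 FPKM in any library, and it was so in both JQ1 libraries. The share of ORAI2 was 2.54-fold lower in JQ1 than in DMSO (log2 ratio -1.34, -1.52 to -1.17) and 2.39-fold lower in JQ1 + PHA than in DMSO + PHA (log2 ratio -1.26, -1.44 to -1.08). The PHA ratios were -0.19 (-0.33 to -0.06) and -0.11 (-0.32 to 0.11). ALKBH4, a neighbour annotated on the opposite strand that overlaps ORAI2, had 242 counts in DMSO, 95 in JQ1, 239 in DMSO + PHA and 125 in JQ1 + PHA. It was lower in the same 2 libraries, and since the strand setting of the counting is not given in the sources used here, reads of the 2 genes cannot be told apart where they overlap.

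ORAI3, the third pore gene, was close to absent, with 6, 26, 36 and 12 counts in DMSO, JQ1, DMSO + PHA and JQ1 + PHA, and did not pass the filter on low values.

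**Figure D1:**
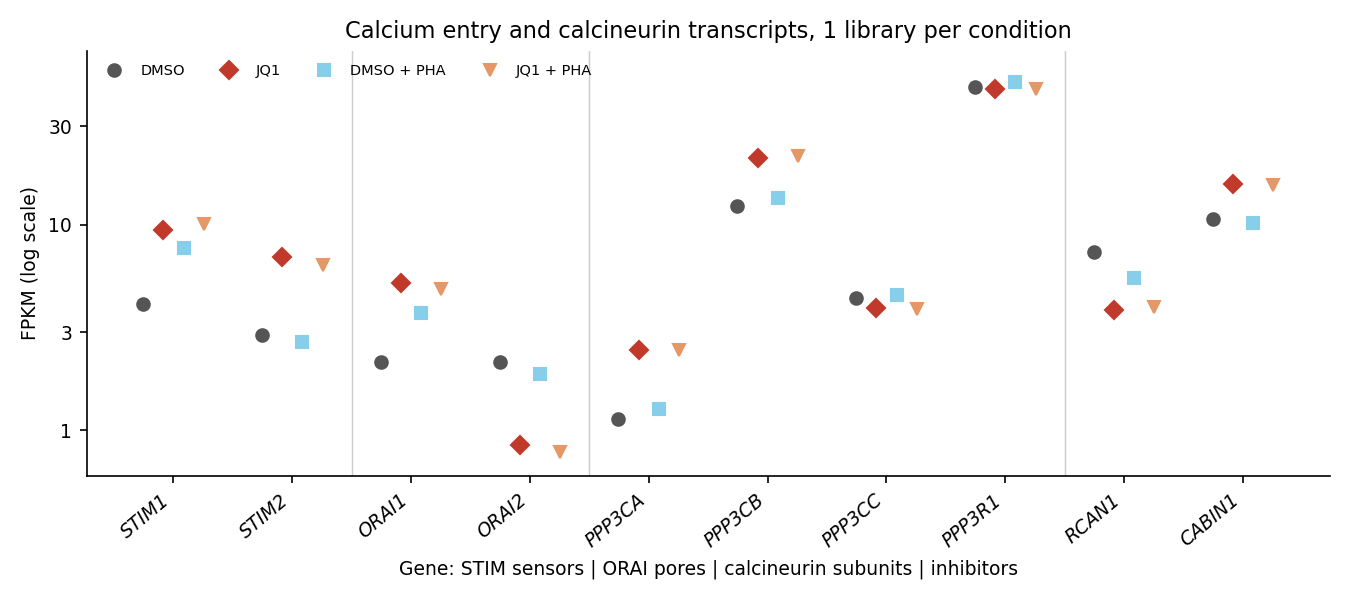
FPKM of the 10 genes (log axis) in the 4 libraries, 1 point per library, with vertical lines between sensors, pores, calcineurin subunits and inhibitors. STIM1 and ORAI1 are low in the DMSO library alone, STIM2, PPP3CA, PPP3CB and CABIN1 are high in both JQ1 libraries, and ORAI2 and RCAN1 are low in both.

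Among the catalytic subunits of calcineurin, 2 of 3 were higher with JQ1. PPP3CA (chromosome 4, 101023409 to 101348278, minus strand), the alpha isoform, was at 1.14 FPKM in DMSO (330 counts), 2.46 in JQ1 (744 counts), 1.28 in DMSO + PHA (387 counts) and 2.47 in JQ1 + PHA (707 counts). PPP3CB (chromosome 10, 73436428 to 73496024, minus strand), the beta isoform, which is known for its role in T-cell responses, was at 12.3 FPKM (1803 counts), 21.2 (3253 counts), 13.5 (2075 counts) and 21.6 (3143 counts) in the same order. In both genes the 2 JQ1 libraries lay together above the 2 others.

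The JQ1 ratio of PPP3CA on the log2 scale of shares was 1.11 (0.92 to 1.30) in unstimulated cells and 0.95 (0.77 to 1.13) in PHA-treated cells. That of PPP3CB was 0.79 (0.70 to 0.87) and 0.68 (0.60 to 0.76). Neither gene differed much with PHA, whose ratios were between 0.01 and 0.16 for PPP3CA and between 0.03 and 0.14 for PPP3CB. A noncoding gene on the opposite strand, PPP3CB-AS1, had 108, 348, 131 and 308 counts in DMSO, JQ1, DMSO + PHA and JQ1 + PHA, and was thus high in the same libraries as PPP3CB. Its counts were at most 348, against at least 1803 for PPP3CB.

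PPP3CC (chromosome 8, 22440819 to 22541142, plus strand), the gamma isoform, did not share the JQ1 difference. It was at 4.39 FPKM in DMSO (470 counts), 3.92 in JQ1 (439 counts), 4.53 in DMSO + PHA (508 counts) and 3.90 in JQ1 + PHA (414 counts). The JQ1 ratio was -0.16 (-0.35 to 0.03) without PHA, which includes 0, and -0.21 (-0.41 to -0.02) with PHA. PPP3R1 (chromosome 2, 68178857 to 68256237, minus strand), the calcium-binding regulatory subunit, was the most abundant of the 10 in every library, at 46.5 FPKM (3179 counts), 45.4 (3249 counts), 49.2 (3518 counts) and 45.7 (3091 counts). Its 4 values were the closest together of the 10 genes, with a range of 0.11 on the log2 scale of shares.

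**Figure D2:**
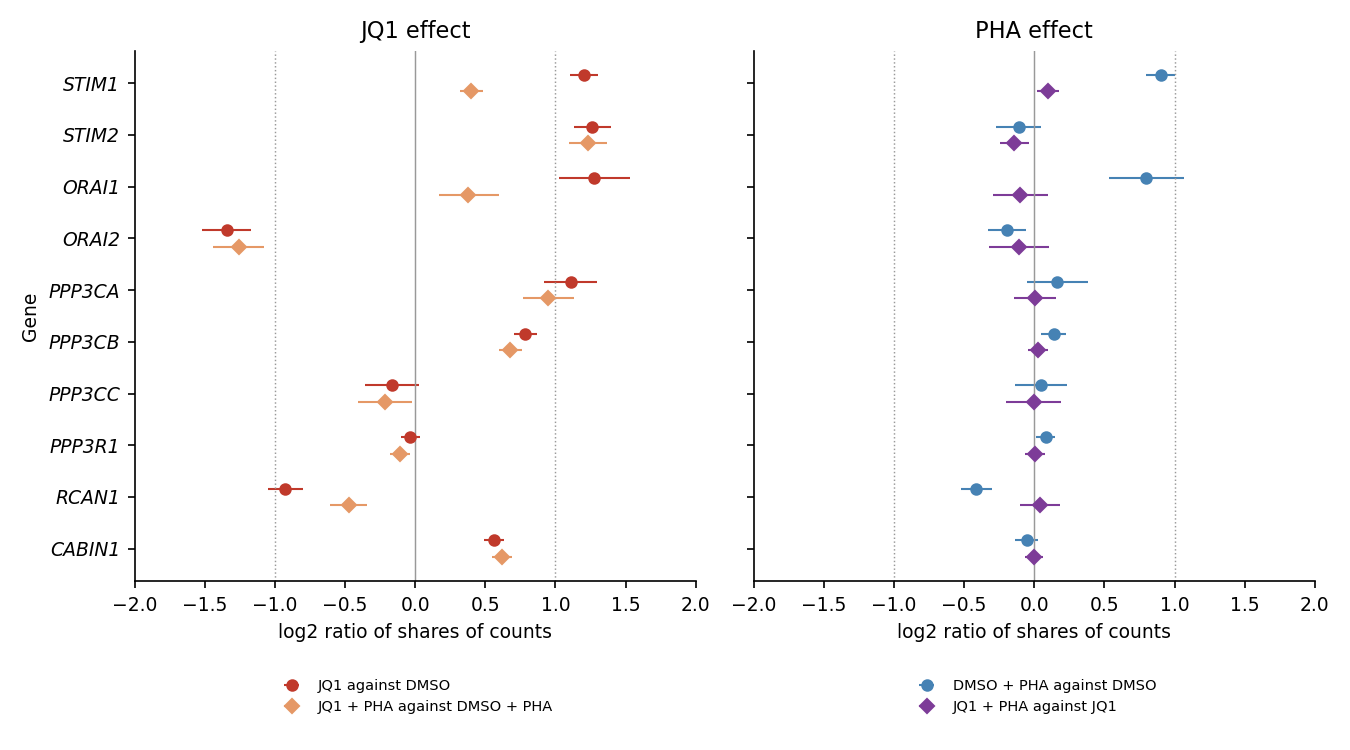
Log2 ratios of the shares of counts with 95% counting intervals for the 10 genes, JQ1 effects on the left (without and with PHA) and PHA effects on the right (in DMSO and in JQ1). Dotted lines mark 2-fold. The JQ1 ratios of STIM1 and ORAI1 drop from 1.20 and 1.28 to 0.40 and 0.38 with PHA, and those of STIM2 and ORAI2 are 1.26 and -1.34 without and 1.23 and -1.26 with PHA.

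The inhibitors differed from each other. RCAN1 (chromosome 21, 34513142 to 34615142, minus strand) was at 7.34 FPKM in DMSO (1517 counts), 3.86 in JQ1 (835 counts), 5.51 in DMSO + PHA (1193 counts) and 3.97 in JQ1 + PHA (812 counts). DMSO alone was the highest library and both JQ1 libraries were the lowest. Its share was 1.90-fold lower in JQ1 than in DMSO (log2 ratio -0.93, -1.05 to -0.80) and 1.39-fold lower in JQ1 + PHA than in DMSO + PHA (log2 ratio -0.47, -0.61 to -0.34). With PHA alone the log2 ratio was -0.41 (-0.52 to -0.30), and with PHA on top of JQ1 it was 0.04 (-0.10 to 0.18).

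CABIN1 (chromosome 22, 24011192 to 24178628, plus strand), a large nuclear protein that binds calcineurin and the factor MEF2, was at 10.6 FPKM in DMSO (2569 counts), 15.7 in JQ1 (3973 counts), 10.2 in DMSO + PHA (2588 counts) and 15.7 in JQ1 + PHA (3755 counts). It was therefore high in both JQ1 libraries, the log2 ratio being 0.56 (0.49 to 0.64) for JQ1 alone and 0.62 (0.54 to 0.69) when PHA was present. The PHA ratios of CABIN1 were -0.05 (-0.13 to 0.02) and -0.00 (-0.07 to 0.06).

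RCAN1 is transcribed from several starts, and its internal promoter is a textbook target of NFAT, which makes RCAN1 a feedback inhibitor of calcineurin. The deposited counts are given per gene and do not separate the starts, so the sequences before 2 of them are shown to set the gene-level values beside the promoter they could come from. Both stretches are the 109 bases just before an annotated first exon, on the minus strand of chromosome 21 of GRCh38, written 5′ to 3′ from RefSeq's promoter sequences (GRCh38.p14). Capitals mark matches to the NFAT core GGAAA on either strand, which reads TTTCC where it lies on the other strand. The distal stretch, chr21:34615114-34615222, precedes the first exon of the canonical RCAN1 transcript, and the internal stretch, chr21:34526964-34527072, precedes an alternative first exon, whose start lies 88150 bases further along the gene.
RCAN1 distal: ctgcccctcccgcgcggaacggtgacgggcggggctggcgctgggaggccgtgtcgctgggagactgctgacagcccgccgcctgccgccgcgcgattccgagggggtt
RCAN1 internal: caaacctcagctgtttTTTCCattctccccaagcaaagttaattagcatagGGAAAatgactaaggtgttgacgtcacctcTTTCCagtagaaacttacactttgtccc

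The distal stretch held 16 CpG pairs and no match, and the internal stretch held 1 CpG pair and 3 matches. RefSeq's 300-base promoter windows (250 bases before a start and 50 after) include one for another internal start, 141 bases further along the gene, that contains the internal stretch. This window was chosen because it held the most matches of the RCAN1 windows, and the internal stretch follows from that choice. It had 5 matches, a number reached by 0.740% of 35116 promoters, while 61.2% of all promoters held at least 1. As the highest of several windows of 1 gene, it cannot be set against a share of single promoters. It also held 2 CpG pairs, against a median of 14 over all promoters. Promoter sequences were found for 6 of the 10 genes, with 14 entries in all, of which 7 held at least 1 match. The windows of ORAI2, STIM2 and CABIN1 held none, and that of PPP3R1 held 1. Those of STIM1 held 1 each, apart from that of the start at 3855703, with none. The other windows with a match were those of RCAN1 at the starts 34526822, 34525467 and 34524637, and its remaining windows held none. ORAI1, PPP3CA, PPP3CB and PPP3CC had no entry. These are matches of letters only, and binding was not measured in these libraries.

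Across the 10 genes, the JQ1 ratios without PHA reached 2-fold, on the log2(FPKM + 0.1) scale used for every count of calls, in 4 genes on the high side (STIM1, STIM2, ORAI1 and PPP3CA) and in 1 on the low side (ORAI2). Of all 11503 genes, 5.22% were 2-fold higher and 8.65% were 2-fold lower. The median log2 ratio of the 10 genes was 0.67, against -0.01 for all genes. The 4 calls on the high side rest on ratios between 1.04 and 1.24, with PPP3CA nearest to the threshold. With 1 added to FPKM in place of 0.1, only STIM1 and STIM2 reached 2-fold.

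With PHA in both libraries, JQ1 went with 1 gene 2-fold higher (STIM2) and 1 lower (ORAI2), where 3.69% and 8.00% of all genes were so called. The median was 0.38, against -0.02 for all genes. Of the 10 genes, 6 were higher and 4 lower in both JQ1 comparisons, which share no library, and 82.8% of all genes had the same direction in both. PPP3R1, one of the lower genes, was at -0.03 with an interval across 0 without PHA, and under DESeq2 size factors it was at 0.01, which left 9 of 10 genes with the same direction. The counting interval was off 0 for 8 of 10 genes without PHA and for 10 of 10 with PHA, or 8 of 10 with PHA under TMM or DESeq2 scaling. As 75.6% and 72.9% of all genes had such intervals at this depth, these last counts do not set the 10 genes apart.

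No member reached 2-fold with PHA. In DMSO + PHA against DMSO, 2.10% of all genes were 2-fold higher and 1.19% lower, and the interval was off 0 for 6 of the 10 genes against 49.8% of all genes. STIM1 and ORAI1 were highest, at 1.87-fold and 1.74-fold, and RCAN1 was lowest, at 1.33-fold lower. In JQ1 + PHA against JQ1, where 1.04% and 1.03% of all genes were 2-fold higher and lower, the 10 genes lay between -0.14 and 0.10, and the interval was off 0 only for STIM1 and STIM2, against 31.4% of all genes.

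The JQ1 ratio with PHA was compared with the JQ1 ratio without PHA for each gene. The difference was -0.80 for STIM1 (log2, -0.93 to -0.67), -0.90 for ORAI1 (-1.23 to -0.56) and 0.45 for RCAN1 (0.27 to 0.63). For the other 7 genes the interval included 0, and it was narrowest for PPP3R1 (-0.17 to 0.03) and CABIN1 (-0.05 to 0.16). Of 11481 genes with such an interval, 41.0% had one off 0, so 3 of 10 is no more than the background. DMSO alone was the lowest library for STIM1 and ORAI1 and the highest for RCAN1. STIM1 and ORAI1 were at least 1.5-fold lower there than in each other library, as were 250 of the 11503 genes (2.17%).

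Because a ratio between 2 genes of 1 library does not depend on how the libraries are scaled, partner genes were also compared within libraries. ORAI2 had 5.17 counts for each count of ORAI1 in DMSO (4.40 to 6.09), 0.839 in JQ1 (0.731 to 0.963), 2.60 in DMSO + PHA (2.29 to 2.96) and 0.835 in JQ1 + PHA (0.720 to 0.967). The 2 JQ1 libraries were alike and the 2 others were both higher. The change with JQ1 was 6.16-fold without PHA (log2 -2.62, -2.93 to -2.31) and 3.11-fold with PHA (log2 -1.64, -1.92 to -1.35). In terms of level per length, ORAI1 made up 49.8% of the summed FPKM of ORAI1 and ORAI2 in DMSO, 85.9% in JQ1, 66.4% in DMSO + PHA and 86.0% in JQ1 + PHA.

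STIM2 had 0.601 counts for each count of STIM1 in DMSO (0.545 to 0.662), 0.626 in JQ1 (0.589 to 0.666), 0.298 in DMSO + PHA (0.272 to 0.325) and 0.530 in JQ1 + PHA (0.497 to 0.565). Here DMSO + PHA was the library apart. The ratio differed little with JQ1 alone (log2 0.06, -0.11 to 0.23), and was 2.02-fold lower with PHA alone (log2 -1.01, -1.20 to -0.82).

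**Figure D3:**
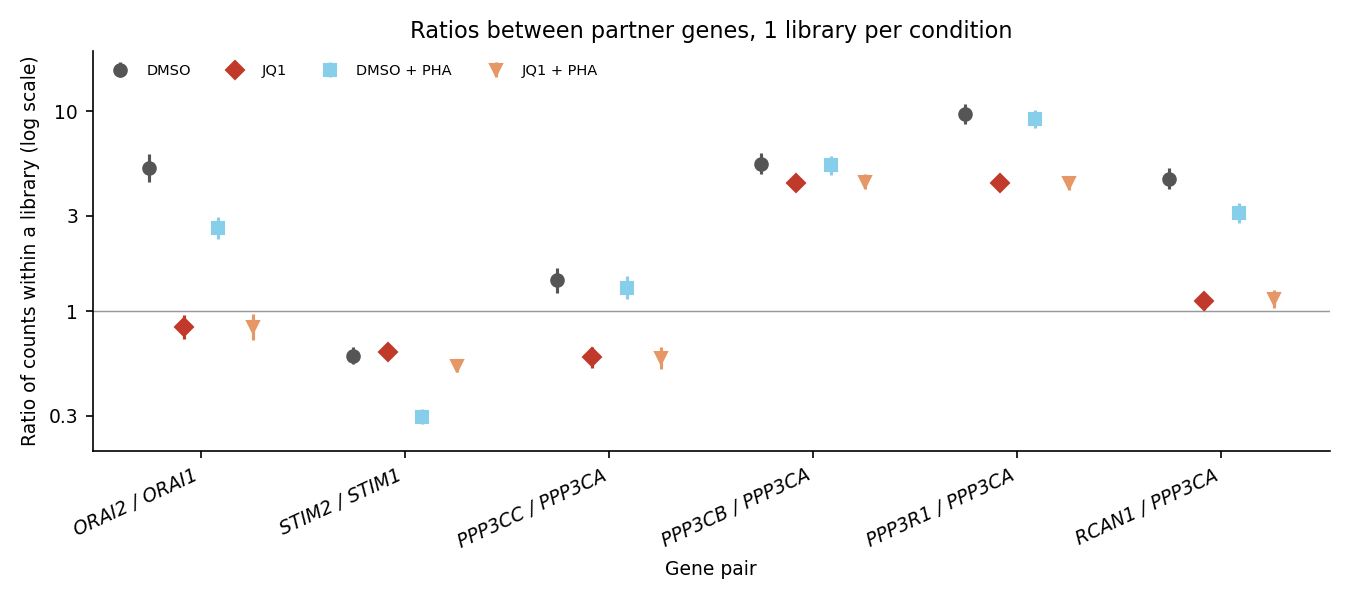
Ratios of counts between partner genes within each library (log axis), with 95% counting intervals and a line at equal counts. ORAI2 to ORAI1 is 5.17 in DMSO and 2.60 in DMSO + PHA but 0.839 and 0.835 in the JQ1 libraries, and PPP3CC to PPP3CA is 1.42 and 1.31 without JQ1 and 0.590 and 0.586 with it. The ratios are not corrected for gene length.

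Among the calcineurin subunits, PPP3CC had 1.42 counts for each count of PPP3CA in DMSO (1.23 to 1.64) and 1.31 in DMSO + PHA (1.148 to 1.502), but 0.590 in JQ1 (0.523 to 0.665) and 0.586 in JQ1 + PHA (0.517 to 0.662). The ratio was lower in both JQ1 libraries, with log2 changes of -1.27 (-1.54 to -1.00) for JQ1 alone and -1.16 (-1.43 to -0.90) when PHA was present. Counts do not order genes of different length, and by deposited FPKM PPP3CC was above PPP3CA by 3.85-fold in DMSO, 1.60-fold in JQ1, 3.55-fold in DMSO + PHA and 1.58-fold in JQ1 + PHA. By the length of all annotated exons these were 2.56, 1.06, 2.36 and 1.05, so the order of the 2 genes in the JQ1 libraries is not settled. PPP3CB was the most abundant catalytic isoform, at 69.0% of the summed FPKM of the 3 in DMSO, 76.9% in JQ1, 69.9% in DMSO + PHA and 77.2% in JQ1 + PHA. The sum itself was 17.8, 27.6, 19.3 and 28.0 FPKM in the same order, and so was higher in both JQ1 libraries.

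The regulatory subunit did not follow that sum, as PPP3R1 was at 46.5, 45.4, 49.2 and 45.7 FPKM in the same order. By FPKM it was above PPP3CB by 3.79-fold in DMSO, 2.14-fold in JQ1, 3.64-fold in DMSO + PHA and 2.11-fold in JQ1 + PHA. PPP3CA made up only 6.40% of the sum in DMSO and 8.91% in JQ1, and the ratio to PPP3CA differed more with JQ1. PPP3R1 had 9.63 counts for each count of PPP3CA in DMSO (8.60 to 10.8), 4.37 in JQ1 (4.03 to 4.74), 9.09 in DMSO + PHA (8.18 to 10.1) and 4.37 in JQ1 + PHA (4.03 to 4.75). RCAN1 had 4.60 counts for each count of PPP3CA in DMSO (4.08 to 5.19), 1.12 in JQ1 (1.02 to 1.24), 3.08 in DMSO + PHA (2.75 to 3.47) and 1.15 in JQ1 + PHA (1.04 to 1.27). The log2 change of RCAN1 against PPP3CA was -2.03 (-2.26 to -1.81) with JQ1 alone and -1.42 (-1.65 to -1.20) with PHA present. Against PPP3CB, the most abundant catalytic isoform, RCAN1 had 0.841 counts for each count in DMSO (0.785 to 0.901), 0.257 in JQ1 (0.238 to 0.277), 0.575 in DMSO + PHA (0.535 to 0.618) and 0.258 in JQ1 + PHA (0.239 to 0.279). RCAN1 was thus lower relative to both isoforms in both JQ1 libraries.

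Levels can be ordered between genes only per length. In DMSO the order by deposited FPKM ran PPP3R1, PPP3CB, CABIN1, RCAN1, PPP3CC, STIM1, STIM2, ORAI2, ORAI1 and PPP3CA, and the neighbours PPP3CC and STIM1, and ORAI2 and ORAI1, did not differ beyond counting error. In JQ1 the same was true of PPP3CC and RCAN1, and in JQ1 + PHA of RCAN1 and PPP3CC, and in DMSO + PHA all neighbours differed by more than counting error. The gene length implied by each deposited count and FPKM was longer than the annotated exons of the gene for 10 of 10 members, from 1.08 times for PPP3R1 to 2.95 times for PPP3CA, so the deposited values understate some genes more than others. By the length of all annotated exons, PPP3CA in DMSO would be at 3.36 FPKM in place of 1.14, and ORAI2 at 4.47 in place of 2.16. ORAI2 would then lie above STIM2, at 4.28. By the length of the canonical transcript, RCAN1 in DMSO would be at 32.2 FPKM, above PPP3CB at 27.2 and CABIN1 at 18.9. The order of these genes is therefore not settled. Ratios between libraries do not depend on the gene length used.

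The rest of the pathway was taken from a list of 57 genes, of which 40 passed the filter on low values. With JQ1 alone 4 of the 40 were 2-fold higher and 4 were 2-fold lower, with JQ1 in PHA-treated cells 2 and 4, with PHA in DMSO 1 and 0, and with PHA in JQ1 0 and 1. Of all genes, 5.22% were 2-fold higher and 8.65% lower with JQ1 alone, and 3.69% and 8.00% with JQ1 in PHA-treated cells. The shares were 2.10% and 1.19% with PHA in DMSO, and 1.04% and 1.03% with PHA in JQ1. The JQ1 counts on the low side and the PHA counts are near those shares of 40 genes. On the high side, 4 of 40 with JQ1 alone was above the share of 5.22%, a difference that was not tested. The median log2 ratio of these 40 genes was 0.27 without PHA and 0.26 with PHA for JQ1, against -0.01 and -0.02 for all genes.

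Calmodulin carries the calcium signal from ORAI channels to calcineurin, and it is encoded by several genes. CALM3 was 2-fold higher with JQ1 without PHA only, with 2781 counts in DMSO, 6708 in JQ1, 2793 in DMSO + PHA and 3886 in JQ1 + PHA (log2 ratios of shares 1.21 and 0.56). CALM2 was at 4833, 5417, 5970 and 5926 counts in the same order, with ratios of 0.10 and 0.07. CAMK4, a calmodulin-dependent kinase of T cells, was high in both JQ1 libraries, with 6126, 13582, 5724 and 12168 counts (1.08 and 1.17).

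CHP1, a calcineurin B-like protein that inhibits calcineurin, had 397 counts in DMSO and 1868, 2035 and 1798 in JQ1, DMSO + PHA and JQ1 + PHA. It shared with STIM1 and ORAI1 the low value in DMSO alone, and was the only one of the 40 genes at least 1.5-fold lower there than in each other library. As 2.17% of all genes were so, 1 of 40 is near the background. RCAN3, a relative of RCAN1, went the other way from RCAN1 with JQ1, with 782, 1373, 843 and 1259 counts and a log2 ratio of 0.75 (0.62 to 0.88) for JQ1 alone and 0.66 (0.53 to 0.79) when PHA was present.

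Of the 40 genes, 4 were 2-fold lower in both JQ1 comparisons, as ORAI2 was. Of all genes, 8.65% were so in the first comparison and 8.00% in the second. The share lower in both was not counted, so the 4 are not set apart from the background. TRPM2, a calcium-permeable cation channel, had 742 counts in DMSO, 52 in JQ1, 704 in DMSO + PHA and 62 in JQ1 + PHA (log2 ratios -3.90 and -3.43). KCNA3, the potassium channel that holds the membrane potential on which calcium entry depends, had 161, 58, 281 and 78 counts (-1.54 and -1.77). CALR, which buffers calcium in the endoplasmic reticulum, had 19238, 6705, 19956 and 7570 counts (-1.59 and -1.32). AKAP5, a scaffold that anchors calcineurin near the membrane, had 450, 150, 358 and 141 counts (-1.65 and -1.26).

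ATP2B4, a plasma membrane pump that removes calcium, was the only one of the 40 genes 2-fold apart with PHA in JQ1-treated cells. It had 4981 counts in DMSO, 8589 in JQ1, 2730 in DMSO + PHA and 3345 in JQ1 + PHA, with a log2 ratio of -1.28 (-1.34 to -1.22) for PHA in JQ1 and -0.93 (-1.00 to -0.87) for PHA in DMSO.

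**Figure D4:**
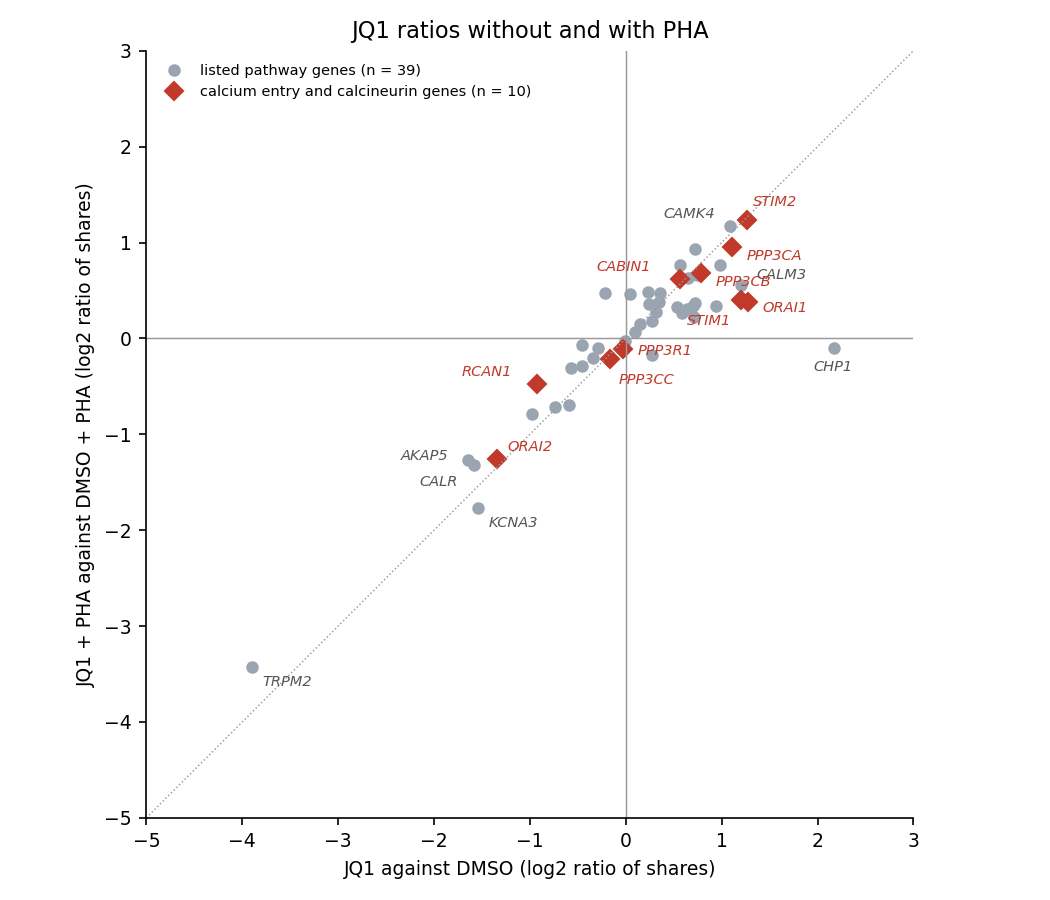
Log2 ratios of shares for JQ1 against DMSO (horizontal) and JQ1 + PHA against DMSO + PHA (vertical) for the 10 genes (diamonds) and 39 other genes of the pathway (circles), with names at the diamonds and at circles 1 or more from 0 on either axis and a dotted line of equal ratios. STIM1, ORAI1 and CHP1 lie well under the line, with -0.10 on the vertical axis for CHP1, while STIM2, ORAI2 and CABIN1 lie near it.

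Of the 10 genes, ORAI2 and STIM2 ranged most widely over the 4 libraries, by 1.45 and 1.37 on the log2 scale of shares. The genes nearest to ORAI2, by the Euclidean distance of centred log2(FPKM + 0.1) values over 4 libraries, were ACACA, an enzyme of fatty acid synthesis, at 9.77, 3.99, 8.50 and 3.83 FPKM in DMSO, JQ1, DMSO + PHA and JQ1 + PHA (distance 0.0303), RP11-75L1.2 (0.0410) and MORN2 (0.0437). Those nearest to STIM2 were LINC01221 (0.0558), RN7SL145P (0.0605) and RP11-159D12.8, at 6.09, 15.4, 5.78 and 13.3 FPKM (0.0652). With 4 points per gene the distances are a description only.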

How the data were processed

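Total RNA of Jurkat cells was sequenced on an Illumina HiSeq instrument, 1 library per condition. The methods of the study and the protocol in the labels name Hisat2 2.0.4 and GRCh38, whereas the submitters' processing notes name TopHat2 2.0.9 and Cufflinks 2.1.1, and the 2 sources name different VAHTS library kits. The annotation release, the counter and its strand setting are not given in the sources used here. The authors deposited raw read counts per gene and FPKM per gene for each library. Each deposited FPKM equals the count divided by the library total and by 1 gene length, which was recovered from the ratio of both.

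The members and gene lists were chosen with earlier results of these data known. The conditions were compared without a test, as there is 1 library in each. For the genes whose FPKM averaged 1 or more over the libraries, log2(FPKM + 0.1) was subtracted between libraries, and a difference was called at 2-fold. This scale understates differences of low genes. For single genes the log2 ratio of shares of counts is given with a 95% exact (Clopper-Pearson) interval, and for differences of ratios and changes of gene pairs with a 95% conditional exact interval. Reads without molecular identifiers are not independent molecules, so the intervals and the limit for a count of 0 (3 counts) cover counting error only. Genes named are the 10 members, pathway genes past 2-fold in a comparison with ORAI3, CALM2, CALM3 and RCAN3, and the 3 nearest patterns of the 2 widest members. ITPR2, ESYT1 and CAMK2D were named after seeing the data. Alternatives were pseudocounts of 1 and 0.01, a fold of 1.5, no filter or a mean FPKM of at least 5, edgeR 4.0.16 TMM factors and DESeq2 1.42.0 size factors as scalings only, median centring, shares without pseudocount, the union of annotated exons (GENCODE release 44) and, chosen after seeing the data, the canonical transcript length, both scalings for CHP1, ORAI3 and shared directions, and RCAN1 against PPP3CB. Python 3.11.15 with scipy 1.17.1, and R 4.3.3, were used, and the interval code was tested on simulated data. Promoters were RefSeq entries. The values of 1 pathway gene are not reported here, though it is counted with the 40 tested.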

Additional observations from a re-analysis of the deposited data

Results flagged for a closer look

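JQ1 ratios of opposite sign without and with PHA were looked for only among the members and the pathway genes chosen for naming. CHP1 had such ratios, with both intervals off 0 when scaled by library totals. Its JQ1 ratio was 2.17 (log2 of shares, 2.01 to 2.33) without PHA and -0.10 (-0.19 to -0.01) with PHA, a difference of -2.27. The ratio with PHA depends on the scaling, as it was -0.05 (-0.14 to 0.04) under TMM factors and -0.04 (-0.13 to 0.05) under DESeq2 size factors, intervals that include 0. ORAI3, with 6 to 36 counts per library, went from 2.05 (0.74 to 3.62) to -1.50 (-2.58 to -0.53), a difference of -3.56. Pathway genes outside that search reversed too. ITPR2 went from -0.22 (-0.29 to -0.15) to 0.47 (0.38 to 0.55). ESYT1 went from 0.27 (0.19 to 0.36) to -0.18 (-0.25 to -0.10). CAMK2D, below the filter on low values, went from 1.02 (0.70 to 1.34) to -0.92 (-1.20 to -0.65). The share of all genes with such a reversal was not counted. With 1 library per condition, none of these reversals could be tested against the spread between cultures. CHP1 was at least 1.5-fold lower in the DMSO library than in each other library, as STIM1, ORAI1 and 2.17% of all genes were. ORAI3 had 6 counts there and 12 in JQ1 + PHA, and did not pass the filter on low values, so its lowest library is not settled.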

How the results depend on the processing

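Scaling by TMM or size factors, or centring on the median gene, left 120 of 120 log2 ratios of the members within their counting interval. The shifts were at most 0.06. Under TMM and size factors, 3 genes kept an interval off 0 for the difference of JQ1 ratios. That difference was not recomputed with median centring. Intervals came to include 0 in 6 cases (PPP3CC and PPP3R1 for JQ1 in PHA-treated cells, and PPP3R1 for PHA in DMSO, under each scaling of edgeR and DESeq2). The counts of members past 2-fold depended on the thresholds. In JQ1 against DMSO, 5 members became 2 with a pseudocount of 1 and 1 (of 5 left) with a mean FPKM of at least 5. Of all genes, 2.65% were then higher and 5.01% lower under the first setting, and 3.47% and 6.52% under the second. In JQ1 + PHA against DMSO + PHA, 2 became 0 under both of these and 5 at a fold of 1.5. The shares of all genes higher and lower were 1.96% and 4.60%, 2.51% and 5.68%, and 11.7% and 17.8%. In DMSO + PHA against DMSO, 0 became 2 (STIM1 and ORAI1) at a fold of 1.5, where 5.59% of all genes were higher and 3.83% lower. The shares over all genes thus moved with the thresholds too. Level ratios in DMSO moved with the gene length used. By deposited, union exon and canonical transcript length, ORAI2 over ORAI1 was 1.01, 1.32 and 0.719, so the order of the pores is not settled there. STIM2 over STIM1 was 0.709, 0.873 and 0.501. Over PPP3CA, PPP3CB was 10.8, 5.60 and 7.36, PPP3CC 3.85, 2.56 and 3.08, RCAN1 6.44, 3.44 and 8.71, and PPP3R1 40.8, 14.9 and 15.1. No replicate could be left out, as each condition has 1 library.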

Other observations

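The mitochondrial calcium uniporter and the kinases that return NFAT to the cytosol were groups of the pathway in which the JQ1 intervals that lay off 0 were above it. For the uniporter and its regulators, 4 of 5 genes had an interval above 0 with JQ1 without PHA and 4 of 5 with PHA, none below, with median log2 ratios of 0.35 and 0.38. For the NFAT export kinases, 4 of 5 tested genes lay above 0 without PHA and 5 of 5 with PHA, with medians of 0.53 and 0.33. None of these genes reached 2-fold in any of the 4 comparisons. Over all 40 genes tested, 25 lay above 0 and 13 below, both without and with PHA. The other ion channels went the other way, with 3 of 3 below 0 in both. Of 5 calcium release genes, 3 lay below 0 without PHA (median -0.22). With PHA, 3 of them lay above and 2 below (median 0.46). The lists were chosen with results of these data known. Of all genes, 75.6% and 72.9% had an interval off 0 in either direction, so 4 of 5 off 0 is near the background. The share above 0 alone was not counted over all genes.

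Some genes of the pathway were not detected. PPP3R2, CAMK1, LRRK2 and NRON had 0 counts in each library, at a limit of at most 0.161 CPM.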
